A study of Mus musculus with 8 samples.

Results

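The cytosolic ribosomal proteins are the proteins that, with ribosomal RNA, build the large and small subunits of the ribosome of the cytoplasm. Array names that begin with Rpl, Rplp, Rps or Rpsa and have the form of a subunit name were taken, and each gene was represented by its brightest probe. This gave 81 genes with 181 probes, of the 36406 names and 55681 probes on the array. They comprise 47 proteins of the large subunit, 31 of the small subunit and the 3 proteins of the P-stalk, and 5 of them (Rpl10l, Rpl39l, Rpl3l, Rpl22l1 and Rps27l) are paralogs of another member. The rule uses names, and brightness on these arrays to pick the probe. Rps23, another small subunit protein, is not among the 81, as no probe carried that name.

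The arrays compared E14Tg2A.4 mouse embryonic stem (ES) cells without treatment, in 4 replicates, with the same line after 72 h of 1 µM retinoic acid (RA), also in 4 replicates, which per the study's methods was given in medium lacking leukemia inhibitory factor (LIF), and no genetic change is given for any of the 8 arrays. The line is a single ES cell line, RNA came from whole cultures, and p-values measure the spread between these cultures. The effects of RA and of the loss of LIF cannot be told apart. RA makes ES cells leave the pluripotent state, and the comparison asks which transcripts move with that exit. In whole cultures, fewer cells of a type and less RNA per cell cannot be told apart.

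Every ribosome needs its proteins in matched amounts, so their genes are expressed together and rank among the most abundant transcripts of growing cells. Many of the transcripts begin with a run of pyrimidines, the terminal oligopyrimidine tract, through which mTORC1 signalling controls their translation. Several family members have a paralog that is restricted to a few tissues, such as testis or striated muscle, and that can take its place in the ribosome.

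Between 33629 and 37175 spots per array were well above background in untreated cells and between 35034 and 35780 after RA, and no spot was saturated. The number of arrays limits the precision. All 7 ES cell markers (among them Pou5f1, Nanog and Esrrb) were lower after RA, with a summed log2 level of 8.09 to 8.55 on the untreated and 3.39 to 5.09 on the RA arrays. All 5 endoderm markers were higher, from 0.25 to 1.13 before and 4.42 to 5.19 after RA, as were 4 of 5 fibroblast markers, from -0.01 to 0.85 before and 4.29 to 5.22 after. Of 4 neural markers 1 was higher and 1 lower, and of 3 mesoderm markers 1 was lower. The part of such cell types in the results below was not tested.

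Most ribosomal protein transcripts changed by similar amounts, and 3 paralogs by far more. Among the 76 members other than the paralogs the SD of the log2 change was 0.17, and among all 81 it was 0.52. The brightest probe of all 81 genes was well above background on all 8 arrays. Together these 81 probes made up 6.27% to 6.91% of the summed signal of an untreated array and 5.79% to 6.29% of that of an RA array, so the ranges touched. Levels are given as the log2 intensity relative to the 75th percentile of the array. On this scale the family median was 8.35, 8.19, 7.92 and 8.44 on the untreated arrays and 7.71, 7.92, 7.82 and 7.82 on the RA arrays. Of the untreated arrays only replicate 3 reached down to the RA arrays.

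The median log2 change of the 81 genes, RA minus untreated, was -0.40, with the middle of the family between -0.49 and -0.32, against -0.28 over all probes. In all 77 genes had a lower mean after RA and 4 a higher one. By limma with Benjamini-Hochberg adjustment over all probes, at an adjusted p under 0.05 and a change over 1.5-fold, 9 members were lower and 0 were higher, where 21.6% of all probes were lower and 12.9% higher. Without the fold limit 30 were lower (23.9% of all probes) and 0 higher (13.8%). So 11.1% of the members were lower with the fold limit and 37.04% without it. With replicate number as a block the count of 30 became 10, or 12.3% of the members, where 22.3% of all probes were lower. Without untreated replicate 3 the count of 9 became 17, or 20.99%, where 22.8% of all probes were lower. The count of 30 then became 55, or 67.9%, and the share of all probes was not computed there. At 2-fold 3 members were lower (14.6% of all probes), and 3 by treat, limma's test against the 1.5-fold limit (10.3%). In 47 members all RA arrays lay below all untreated arrays (23.8% of all probes), and in 0 members did all lie above (13.9%).

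**Figure D1:**
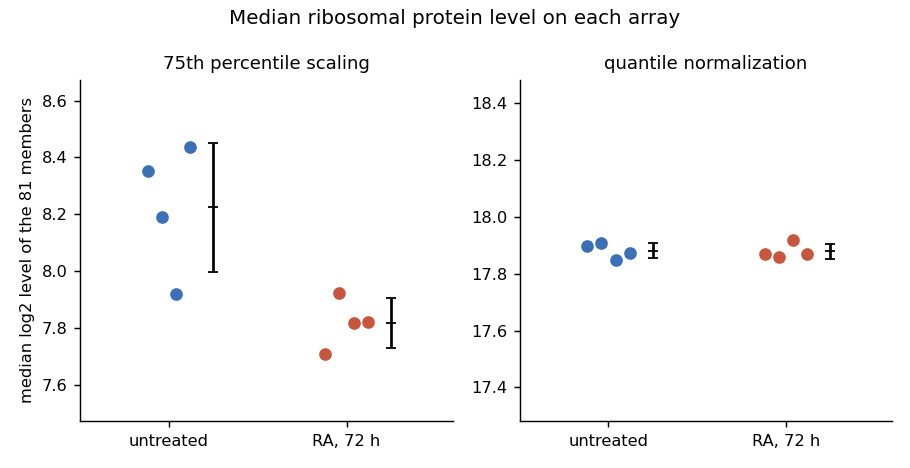
Median log2 level of the 81 ribosomal protein transcripts on each array (points) with the mean and SD of the 4 arrays of a condition (bars), under 75th percentile scaling on the left and quantile normalization on the right, each axis spanning the same range. On the left the RA arrays reach 7.71 to 7.92, and on the right both conditions lie between 17.85 and 17.92.

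The shift of the family depended on how the arrays were scaled. Under quantile normalization, which gives all arrays the same distribution, the median change was -0.0038, with 39 genes higher and 42 lower. Then 1 member was called higher and 3 lower with the fold limit (14.9% and 15.3% of all probes), and 8 were higher and 9 lower without it (16.9% and 18% of all probes). Bright probes of other genes had a shift of similar size under the 75th percentile. Of the 191 probes with a mean log2 level of 8 to 10, 52 belonged to the members, and the median change of the other 139 was -0.46. Among the 5532 probes of other genes with a level of 0 to 2 it was -0.07. Dim probes of other genes shifted as well, by -0.30 at a level of -4 to -2, -0.40 at -6 to -4 and -0.28 at -8 to -6. Under quantile normalization the medians at 8 to 10 and at 0 to 2 were -0.02 and -0.04. Those of the dim probes lay between -0.06 and 0.003. Whether the whole family fell by this amount cannot be told apart from the difference in scaling. Changes below are on the 75th percentile scale, and for the members farthest from the family median they are also given under quantile normalization and relative to the family median of each array, in which a change common to all members cancels. Relative to the family median 2 members were called higher and 3 lower with the fold limit (18.7% and 11.3% of all probes), and 5 were higher and 4 lower without it (20% and 12.2%).

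**Figure D2:**
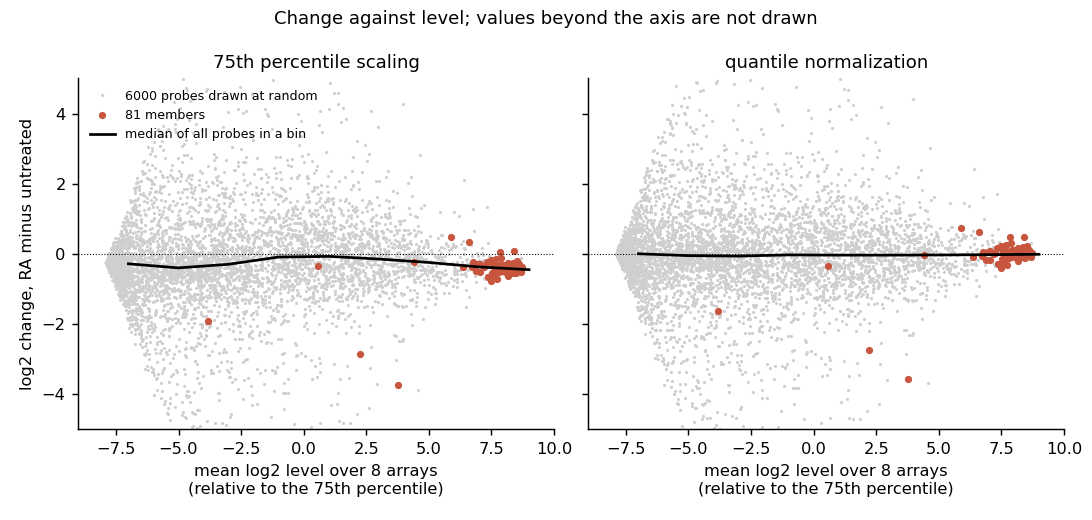
Log2 change, RA minus untreated, against the mean log2 level over 8 arrays, for 6000 probes drawn at random (grey) and the 81 members (red), with the median of all probes, the members' own included, in bins of level as a line, under 75th percentile scaling (left) and quantile normalization (right). Most members lie at the bright end, where the line falls to -0.45 on the left and is at -0.01 on the right, and 3 members lie far below it.

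The subunits had similar median changes. The median change was -0.40 for the 47 large subunit genes, -0.42 for the 31 small subunit genes and -0.40 for the P-stalk. Without the paralogs the SD of the change among the 43 large subunit genes was 0.18 and among the 30 small subunit genes 0.16. Without the 5 paralogs, 6 of the 76 genes (7.89%) were called lower and 0 higher, against 21.6% and 12.9% of all probes.

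**Figure D3:**
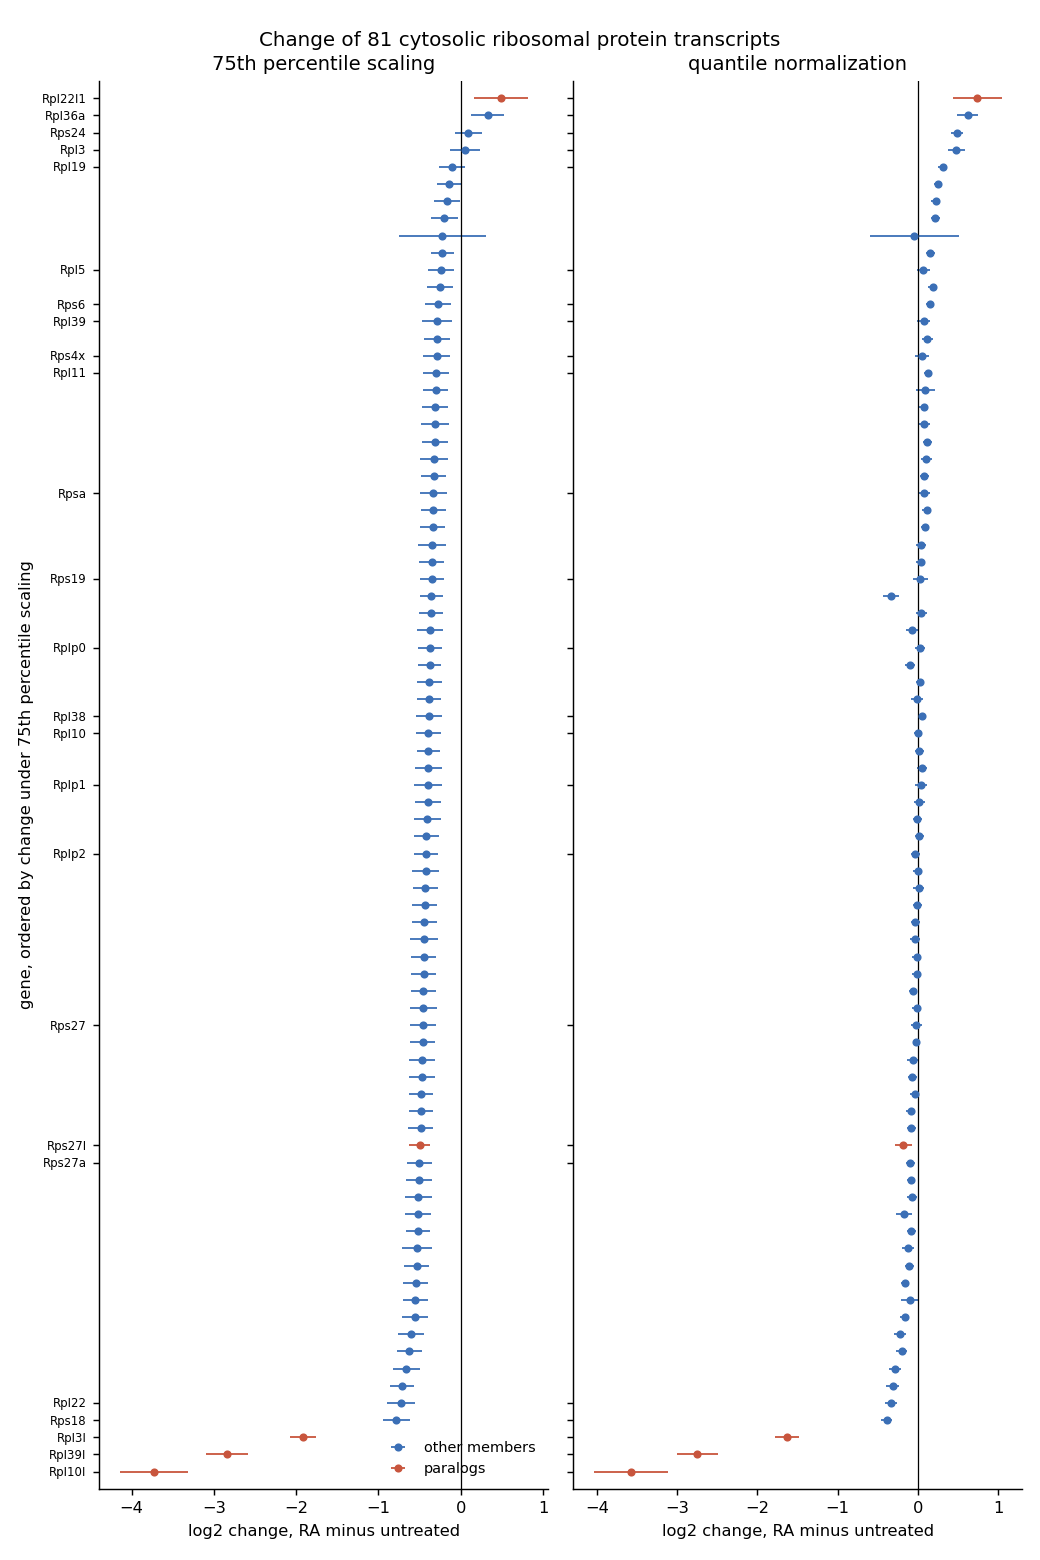
Log2 change, RA minus untreated, of each of the 81 genes with its standard error from limma (bars), ordered by the change under 75th percentile scaling (left) and shown in the same order under quantile normalization (right), with the 5 paralogs in red and the names of the genes described in the text by rule. Rpl10l, Rpl39l and Rpl3l stand apart below all others in both panels, at -3.73, -2.84 and -1.92 on the left, and most other members lie close to each other.

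The 3 members that fell most were the paralogs Rpl10l, Rpl39l and Rpl3l, which fell under every scaling. Rpl10l and Rpl39l are paralogs of Rpl10 and Rpl39 best known from the testis, and Rpl3l is the paralog of Rpl3 found in skeletal and heart muscle. Coding sequences of Rpl10l and Rpl3l probes are shown with those of their parents as what the array measured. They are 60-base probes as the array files give them, all on mm9, with no base marked. Paralog and parent probes lie at different places, at bases 461 (Rpl10l), 627 (Rpl10), 724 (Rpl3l) and 1115 (Rpl3) of their transcripts.
Rpl10l (chr12:67384868-67384927, minus strand, the dimmer of its probes): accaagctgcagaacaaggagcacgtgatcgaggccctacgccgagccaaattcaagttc
Rpl10 (chrX:71518307-71518366, plus strand): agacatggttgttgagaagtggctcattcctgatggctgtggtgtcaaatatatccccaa
Rpl3l (chr17:24872413-24872681, plus strand, across an intron): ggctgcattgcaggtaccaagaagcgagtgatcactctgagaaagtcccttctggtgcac
Rpl3 (chr15:79908489-79908772, minus strand, across an intron, the dimmer of its probes): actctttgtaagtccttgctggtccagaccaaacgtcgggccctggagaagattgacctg
None of the probes used for Rpl10l, Rpl39l, Rpl3l and Rps27l shared a run of 30 identical bases with a probe of another name, whereas 23 of the 81 members' probes did, in most cases with a predicted or unnamed transcript, so that signal from such a copy cannot be told apart in those. The probes of Rpl22l1, Rpl22, Rpl10 and Rpl3 were among the 23. Sharing was examined only among the probes of the array.

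Rpl10l had log2 levels of 5.91, 4.96, 6.29 and 5.31 in untreated cells and 1.54, 2.27, 2.72 and 1.02 after RA. Every RA array lay below every untreated array, and the change was -3.73 ± 0.42 (SE, limma, adjusted p = 0.000159), a 13.3-fold decrease. Its dimmer probe, shown above, changed by -3.69.

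Rpl39l had levels of 4.06, 3.31, 3.94 and 3.29 in untreated cells and 0.93, 1.14, 0.84 and 0.32 after RA. The conditions did not overlap, and the change was -2.84 ± 0.25 (SE, limma, adjusted p = 4.53e-05), a 7.17-fold decrease. Rpl3l, whose probe was the dimmest, had levels of -2.96, -2.84, -2.82 and -2.77 and then -5.04, -4.59, -4.52 and -4.91. Again the conditions stood apart, with a change of -1.92 ± 0.16 (SE, limma, adjusted p = 3.36e-05), a 3.77-fold decrease. Under quantile normalization the changes of these 3 genes were -3.58, -2.75 and -1.63. The size of the fall of the dim Rpl3l depended on the background correction: it was -1.01 (limma, adjusted p = 2.18e-05) with normexp and -0.80 in the authors' table.

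The ratio of a paralog to its parent on the same array does not depend on a shift that is the same for all probes of that array. Of the 8 pairs of related genes examined, 6 differed between the conditions without overlap, each at the smallest p that an exact two-sided permutation test of 4 against 4 arrays can give (p = 0.0286, adjusted over the 8 pairs 0.0381). The log2 ratio of Rpl10l to Rpl10 was -2.96, -3.73, -2.19 and -3.67 in untreated cells and -6.69, -6.21, -5.63 and -7.34 after RA, a change of -3.33 ± 0.51 (SE), and Rpl10 itself changed by -0.39. Rpl39l to Rpl39 changed by -2.56 ± 0.36 and Rpl3l to Rpl3 by -1.97 ± 0.21. Over quantile normalization, normexp background correction and the authors' table as well, the change lay between -3.58 and -3.28 for Rpl10l, between -2.82 and -2.47 for Rpl39l and between -2.11 and -1.11 for Rpl3l, the last with normexp background. When the replicate numbers were taken as pairs, sign flips of the 4 pairs gave p = 0.125 for each of the 6, the smallest that this exact test can give (adjusted p = 0.167).

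Rpl22l1, the paralog of the RNA-binding protein Rpl22, went the other way, on probes that each shared such a run with a probe of another name. The log2 ratio of Rpl22l1 to Rpl22 was -2.45, -1.67, -3.13 and -2.40 in untreated cells and -1.27, -0.85, -1.33 and -1.33 after RA. All RA arrays were higher than all untreated arrays, with a change of 1.22 ± 0.32 (SE, exact permutation p = 0.0286, adjusted p = 0.0381), or 2.32-fold. When the probes of a gene were averaged the change was 0.67 (exact permutation test, adjusted p = 0.114), since the dimmer probe of Rpl22 did not fall. Without any 1 of the RA arrays the change was 1.10 to 1.26 (exact permutation test, adjusted p = 0.0762). Rpl22l1 alone had levels of 5.89, 6.23, 4.65 and 5.85 and then 5.97, 6.53, 5.97 and 6.10, which overlapped, and its change of 0.49 ± 0.33 (SE, limma, adjusted p = 0.241) did not pass the test, nor did that of 0.74 under quantile normalization (limma, adjusted p = 0.110). Untreated replicate 3 was its lowest array, and without it the change was 0.15 (limma, adjusted p = 0.531). Relative to the family median it rose by 0.90 (limma, adjusted p = 0.034). Without 1 array that value ranged from 0.66 to 1.10, with 0.66 without untreated replicate 3 (limma, adjusted p = 0.0367), and it passed the test only without untreated replicate 2 or 3.

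Rpl7l1 to Rpl7 changed by -0.72 ± 0.07 and Rpl36al to Rpl36a by -0.71 ± 0.14, both without overlap and at the same p. Over the same other settings the changes lay between -1.08, under quantile normalization, and -0.69 for Rpl7l1 and between -0.76 and -0.71 for Rpl36al. Rpl7l1 and Rpl36al are named after Rpl7 and Rpl36a, and their names fall outside the family rule. For Rps27l, a paralog of Rps27 known as a target of p53, the ratio to Rps27 changed by -0.04 ± 0.12 (SE, exact permutation p = 0.857), and the conditions overlapped. Over those settings it lay between -0.21 and -0.04, and did not pass the test in any of them. Rps27l and Rps27 themselves were lower after RA by similar amounts, at -0.50 (limma, adjusted p = 0.0154) and -0.46 (limma, adjusted p = 0.0499), and neither passed under quantile normalization or with replicate number as a block. The ratio of the stalk proteins Rplp1 to Rplp2 changed by 0.02 ± 0.05 (SE, exact permutation p = 0.657, adjusted p = 0.751).

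**Figure D4:**
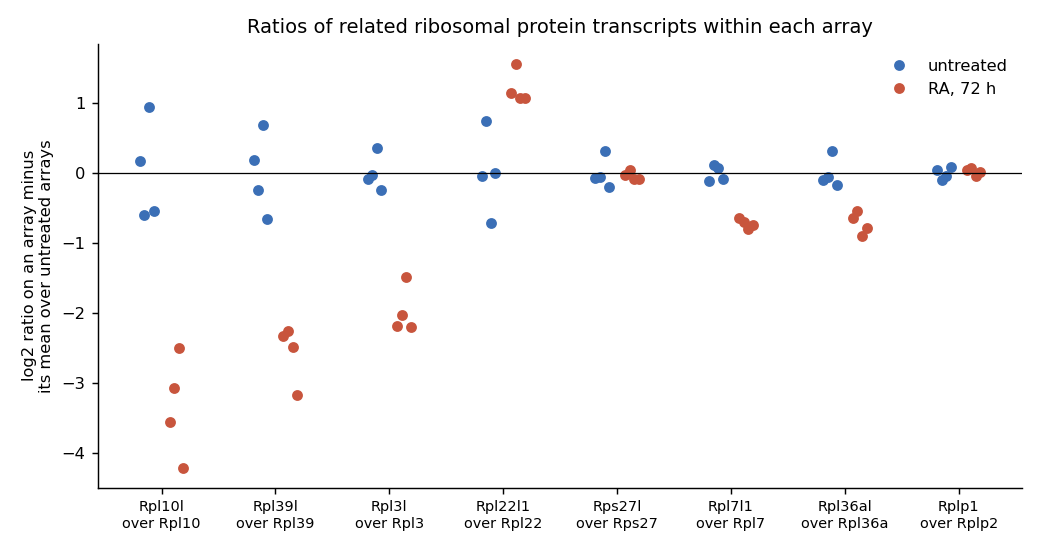
Log2 ratio of 8 pairs of related transcripts on each array, minus the mean ratio over the 4 untreated arrays, for untreated (blue) and RA (red) arrays. The RA points lie below the untreated points for 5 pairs, above them for Rpl22l1 over Rpl22, and among them for Rps27l over Rps27 and Rplp1 over Rplp2.

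Among the members without a tissue-restricted role, Rps18, a protein of the head of the small subunit, fell most. Its levels were 7.97, 7.82, 7.53 and 8.13 in untreated cells and 6.92, 7.20, 7.15 and 7.06 after RA. The conditions did not overlap, and the change was -0.78 ± 0.17 (SE, limma, adjusted p = 0.00537). It was also lower under quantile normalization, by -0.39 (limma, adjusted p = 0.00359), and relative to the family median, by -0.38 (limma, adjusted p = 0.0167). Its other probe changed by -0.73.

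Rpl22, on its brightest probe, had levels of 8.34, 7.90, 7.78 and 8.26 and then 7.24, 7.38, 7.30 and 7.44. The conditions stood apart, at -0.73 ± 0.17 (SE, limma, adjusted p = 0.00796), while under quantile normalization the change was -0.33 (limma, adjusted p = 0.0113) and relative to the family median -0.32 (limma, adjusted p = 0.0543). Rps15 (-0.66) and Rpl18 (-0.62) were also among the members called lower. They were named after their values were seen, and under quantile normalization their changes were -0.28 (limma, adjusted p = 0.0275) and -0.20, which did not pass (limma, adjusted p = 0.0501). Relative to the family median neither passed the test, at -0.25 (limma, adjusted p = 0.127) and -0.22 (limma, adjusted p = 0.143).

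At the other end stood Rpl36a, Rps24, Rpl3 and Rpl19, which had the highest changes after Rpl22l1. Rpl36a, a protein of the large subunit, had levels of 6.89, 6.29, 5.99 and 6.57 in untreated cells and 6.62, 6.71, 6.83 and 6.89 after RA, which overlapped (0.33 ± 0.20, SE, limma, adjusted p = 0.218). Relative to the family median the levels were -1.46, -1.90, -1.93 and -1.86 and then -1.09, -1.22, -0.99 and -0.94. On that scale the conditions stood apart, and Rpl36a rose by 0.73 (limma, adjusted p = 0.00478). It also rose under quantile normalization, by 0.62 (limma, adjusted p = 0.00776), and its 3 probes changed by 0.33, 0.30 and 0.23 on the 75th percentile scale.

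Rpl3, which helps to form the peptidyl transferase centre, had levels of 7.79, 7.86, 7.49 and 8.13 and then 7.80, 8.11, 7.63 and 7.96, with both conditions mixed. Its change was 0.06 ± 0.18 (SE, limma, adjusted p = 0.812) on the 75th percentile scale, 0.48 (limma, adjusted p = 0.00872) under quantile normalization and 0.46 (limma, adjusted p = 0.0238) relative to the family median. Its dimmer probe, shown above, changed by 0.25 on the 75th percentile scale. Rpl19, a protein of the large subunit that reaches across to the small one, changed by -0.11 ± 0.15 (SE, limma, adjusted p = 0.589) on the 75th percentile scale. It was higher under quantile normalization, by 0.31 (limma, adjusted p = 0.0058), and relative to the family median, by 0.30 (limma, adjusted p = 0.0498).

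Rps24, a small subunit protein mutated in Diamond-Blackfan anaemia, is spliced into several transcripts. Its brightest probe changed by 0.09 ± 0.17 (SE, limma, adjusted p = 0.674) and rose by 0.49 under quantile normalization (limma, adjusted p = 0.00146) and by 0.50 relative to the family median (limma, adjusted p = 0.00844). Its other 3 probes changed by -0.40, -0.41 and -0.42 on the 75th percentile scale, close to the median of the family.

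Such differences between probes of 1 gene were few. Of the 55 members with more than 1 probe well above background on all arrays, 9 had probes with changes of opposite sign and 49 had a range among probes under 0.5, with a median range of 0.11. The widest were seen between a bright probe and a dimmer one that begins further along the same transcript, chosen here after their values were seen and given without a test. For Rpl22 the probes begin at bases 385 and 1882, and the log2 ratio of the first to the second was 4.15, 3.64, 4.34 and 3.85 in untreated cells and 3.04, 3.12, 2.70 and 2.78 after RA. The first probe changed by -0.73 and the second by 0.36. For Rpl14 the probes begin at bases 651 and 853, with ratios of 5.77, 5.88, 5.80 and 5.83 and then 5.03, 5.02, 4.67 and 4.97. In both genes the conditions did not overlap. For Rps6, whose probes begin at bases 589 and 1274, the changes were -0.27 and 0.36, and for Rpl13a, at bases 501 and 743, they were -0.35 and 0.14. The RNA had been amplified from its poly(A) end, and the part of this step in the difference was not tested.

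The P-stalk, which recruits the elongation factors to the ribosome, was represented by Rplp0, Rplp1 and Rplp2. Rplp0 had the brightest probe, with levels of 8.99, 8.80, 8.64 and 9.13 in untreated cells and 8.42, 8.58, 8.57 and 8.48 after RA. The RA arrays lay below the untreated ones, with a change of -0.37 ± 0.15 (SE, limma, adjusted p = 0.0837), but under quantile normalization it was 0.03 (limma, adjusted p = 0.838). Rplp1 changed by -0.40 ± 0.17 (limma, adjusted p = 0.0969) and Rplp2 by -0.42 ± 0.15 (limma, adjusted p = 0.050).

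Rplp0 is of interest because the control primers that the study names Rpo for chromatin immunoprecipitation match its promoter and that of no other gene in the RefSeq promoter table. The amplified stretch lies 136 to 51 bases before the annotated start on GRCm38.p6, with the primer sites in capitals.
Rplp0 (chr5:115559331-115559416, plus strand): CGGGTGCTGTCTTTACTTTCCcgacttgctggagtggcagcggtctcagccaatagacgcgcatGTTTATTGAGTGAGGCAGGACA
The primers of the same name for transcripts could not be placed here. Within each array the log2 ratio of Rplp0 to Gapdh, another common reference transcript, was 0.47, 0.39, 0.50 and 0.44 in untreated cells and 0.54, 0.42, 0.63 and 0.51 after RA. The conditions overlapped and the change was 0.08 (exact two-sided permutation p = 0.20). Taken by replicate number, the ratio was higher after RA in each pair of arrays, and this pairing was not tested.

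Of the members with known roles outside bulk ribosome assembly, Rps27a passed the test and the others given here did not. Rpl5 and Rpl11, which bind Mdm2 and link ribosome assembly to p53, changed by -0.25 ± 0.16 (limma, adjusted p = 0.226) and -0.30 ± 0.16 (limma, adjusted p = 0.183). Rpl38, required for the translation of Hox transcripts in the embryo, had levels of 8.44, 8.19, 8.04 and 8.54 and then 7.77, 8.06, 7.90 and 7.94, which overlapped, with a change of -0.39 ± 0.16 (SE, limma, adjusted p = 0.0854). Rpl10, which joins the large subunit last, changed by -0.39 ± 0.15 (limma, adjusted p = 0.0748).

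In the small subunit, Rps19, mutated in Diamond-Blackfan anaemia, changed by -0.35 ± 0.14 (limma, adjusted p = 0.0866). Rps6, the substrate of S6 kinase, changed by -0.27 ± 0.16 (limma, adjusted p = 0.201). Rpsa, also known as the laminin receptor, changed by -0.33 ± 0.16 (limma, adjusted p = 0.138), and Rps4x, encoded on the X chromosome, by -0.29 ± 0.17 (limma, adjusted p = 0.20). Rps27a, made as a fusion with ubiquitin, was lower without overlap, from 9.06, 8.84, 8.74 and 9.15 to 8.29, 8.57, 8.46 and 8.44, a change of -0.50 ± 0.15 (SE, limma, adjusted p = 0.0263). Under quantile normalization it changed by -0.10 (limma, adjusted p = 0.252), and with replicate number as a block by -0.50 (limma, adjusted p = 0.078). Rpl39, a short protein at the exit tunnel, changed by -0.28 ± 0.18 (limma, adjusted p = 0.225). For these members other than Rps27a the change lay between 0.00047 and 0.15 under quantile normalization and between 0.01 and 0.16 relative to the family median, and 0 of 9 passed the test on either scale, the lowest adjusted p by limma being 0.0584. Without a fold limit 16.9% of all probes were higher and 18% lower on the first scale, and 20% and 12.2% on the second. For Rps4x, Rps27 and Rps29 the files place the probe on another chromosome than RefSeq places the gene, so that signal from copies of these genes cannot be told apart.

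Not every member was measured equally well. Rps21 had a single probe with levels of 5.51, 3.54, 4.62 and 4.46 in untreated cells and 4.85, 4.26, 2.98 and 5.15 after RA. The arrays of each condition spread over more than a log2 unit and overlapped, and the change was -0.22 ± 0.53 (SE, limma, adjusted p = 0.749). Rpl21, whose probes were both dim for the family, had levels of 0.25 to 0.50 after RA and 0.56 to 0.90 before, a change of -0.36 ± 0.14 (SE, limma, adjusted p = 0.0767). Under quantile normalization Rpl21 passed the test at -0.33 (limma, adjusted p = 0.0309), and relative to the family median its change was 0.05 (limma, adjusted p = 0.813). Both genes were named after their values were seen.

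The promoters of 60 members were in the RefSeq table, with 72 promoters of 250 bases before to 50 bases after the start, and were compared with all 32851 promoters of the table as a description. A C at the annotated start followed by at least 4 bases that are each C or T was present in 18.1% of the members' promoters and 2.51% of all promoters. A run of at least 8 bases that are each C or T and that reaches within 5 bases of the start was present in 33.3% and 9.72%. Searched on both strands, CCGGAAG, the core of an ETS or GABP site, was found in 36.1% and 8.86%, AAGATGGC, a YY1 core, in 9.72% and 2.75%, and CACGTG, an E-box, in 11.1% and 7.15%. GGGCGG was found in 58.3% and 35.7%, and TATAAA in 9.72% and 13.6%. The reverse complement of CCGGAAG can itself extend a run of C and T, and none of the other letters contains another.

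The 24 members with the run near the start had a median change of -0.41 and the 36 without it of -0.37. This split rests on the annotated starts, and Rps24 had an annotated start with the run and another without it. Whether the transcripts themselves begin with such a run was not tested. The bases from 60 before the start to 10 from it are shown for the member that fell most outside the paralogs, for Rpl22l1, and for Rpl10l and Rpl39l, on GRCm38.p6 with the run of C and T in capitals where there is one.
Rps18 (chr17:33955656-33955725, minus strand): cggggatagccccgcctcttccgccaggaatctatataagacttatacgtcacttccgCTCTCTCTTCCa
Rpl22l1 (chr3:28805448-28805517, plus strand): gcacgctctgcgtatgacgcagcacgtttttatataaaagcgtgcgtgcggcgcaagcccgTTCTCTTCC
Rpl10l (chr12:66284392-66284461, minus strand): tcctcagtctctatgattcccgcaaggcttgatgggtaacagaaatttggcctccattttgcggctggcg
Rpl39l (chr16:10170168-10170237, plus strand): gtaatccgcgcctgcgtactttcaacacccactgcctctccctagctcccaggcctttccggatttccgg
Rps18 and Rpl22l1, which moved in opposite directions relative to the family median, both hold the run, and Rpl10l and Rpl39l do not hold it within 5 bases of the start.

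Other genes of protein synthesis were compared with the family. Of 5 genes listed as ribosomal proteins outside the name rule, Rpl7l1 was lower (-0.86 ± 0.13, limma, adjusted p = 0.000801) and 0 were higher, while Gnb2l1, Rpl36al and Fau changed by -0.46, -0.39 and -0.27. The 76 mitochondrial ribosomal proteins, which translate the messages of the mitochondrial genome, had a median change of -0.66, with 45 lower (59.2%) and 1 higher (1.32%), where 21.6% of all probes were lower and 12.9% higher. Mrps2 fell by 1.80 on the log2 scale and Mrpl35 by 1.38, and Mrpl41 rose by 0.62. The 54 genes of RNA polymerase I and ribosome assembly had a median change of -0.93, with 33 lower (61.1%) and 0 higher. Rrs1, an assembly factor of the large subunit, fell by 1.64 and Taf1c, a subunit of the factor that recruits RNA polymerase I, by 1.62. Under quantile normalization the medians of both lists were -0.53 and -0.75, with 34 (44.7%) and 30 (55.6%) genes lower against 15.3% of all probes, where the median of the cytosolic family was -0.0038.

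The 69 genes of the translation factor list, which by its name rule also holds eIF2 kinases and eIF4E-binding repressors, had a median change of -0.21, with 17 lower (24.6%, near the 21.6% of all probes) and 4 higher (5.80%, against 12.9%). Its 13 Eif3 subunits had a median of 0.01, with 1 higher and 0 lower. Eif5b was well above background on all 4 RA arrays and on 0 of 4 untreated arrays, which gave a bound of at least 3.90-fold higher after RA on the 75th percentile scale (limma, adjusted p = 0.00366). That bound did not hold with normexp background correction, where the change was 0.26 on the log2 scale (limma, adjusted p = 0.144). Eif4e3, a relative of the cap-binding protein, rose by 3.69 ± 0.42 (limma, adjusted p = 0.000167) and was well above background on 1 of 4 untreated arrays, and with normexp background correction the change was 1.41. Eif4e1b, an oocyte form of the cap-binding protein, fell by 3.07, or by 1.45 with normexp background correction, and was well above background on 1 of 4 RA arrays. Eef1a2, the elongation factor of muscle and neurons, was well above background on 1 of 4 untreated and 0 of 4 RA arrays, and under quantile normalization its change did not pass the test (-1.07, limma, adjusted p = 0.153).

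Of 28 regulators in the Myc and mTORC1 list, 4 were higher (14.3%) and 8 lower (28.6%), against 12.9% and 21.6% of all probes. Mxd4, a repressor that competes with Myc for Max, rose by 2.72 ± 0.25 (limma, adjusted p = 5.51e-05), and Sesn3, an inhibitor of mTORC1, rose by 1.16 ± 0.21 (limma, adjusted p = 0.00251). Deptor, which binds and inhibits mTOR, fell by 3.69 and Mxd3, another partner of Max, by 1.74. Thus the Max partners Mxd4 and Mxd3 moved in opposite directions, as did the mTOR inhibitors Sesn3 and Deptor.

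**Figure D5:**
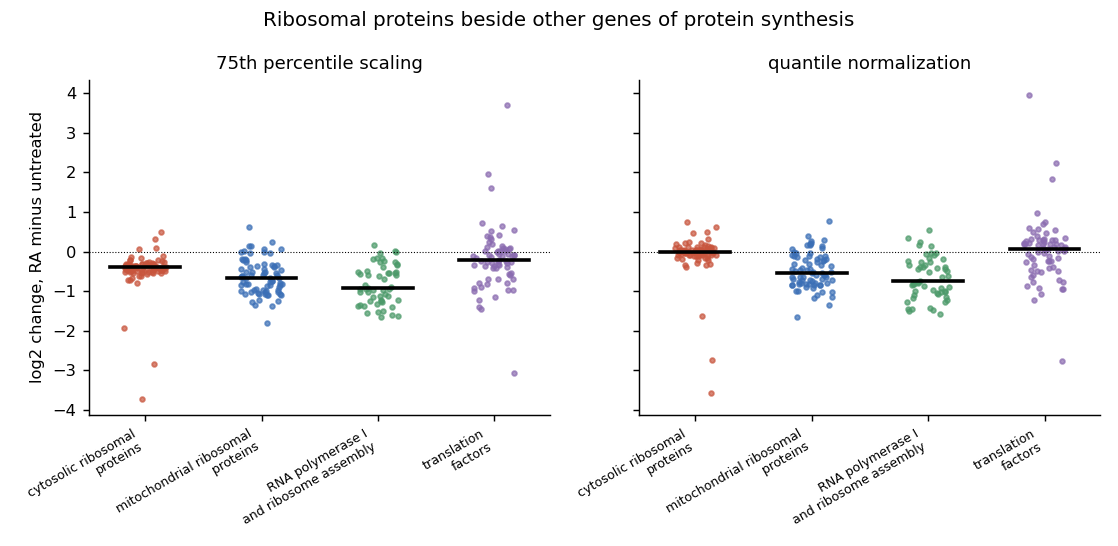
Log2 change, RA minus untreated, of each gene (points) and the median (bars) for the 81 cytosolic ribosomal proteins, 76 mitochondrial ribosomal proteins, 54 genes of RNA polymerase I and ribosome assembly and 69 translation factors, under 75th percentile scaling (left) and quantile normalization (right). The median of the cytosolic family moves from -0.40 on the left to -0.0038 on the right, and that of the assembly genes from -0.93 to -0.75.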

How the data were processed

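Total RNA of E14 ES cells (500 ng per sample) was labelled and hybridized to 1-colour Agilent arrays. The authors deposited scanner output of Feature Extraction (version 10.7.3.1), in which the intensity of a spot is background-corrected but carries no scaling across arrays, and a table of further processed log2 values. In R (version 4.3.3), each array's 75th percentile over its 59305 spots other than controls was subtracted on the log2 scale, and repeated spots were averaged per probe. Conditions were compared over 55681 probes with limma (version 3.58.1), Benjamini-Hochberg adjustment, and the limits of 0.05 and 1.5-fold that the study used. Ratios within arrays were tested by exact permutation over 70 splits. Members, lists, and genes named from them were chosen with earlier results of these data known. Members named are the 5 largest changes each way, the brightest and dimmest, and a list by name. A few genes are not reported here by name. Other lists give the 2 largest called changes each way. Alternatives were the scaling, background correction, the deposited log2 table, filters, thresholds, blocks, and each array left out. Both slides held 2 arrays per condition, and slide was tried as a block. Deviations from the condition means correlated between arrays of the same replicate number at 0.187, 0.190, 0.104 and 0.152, so the number was tried as a block, while limma and the permutation above were run without it. Simulated data with known changes were used to test the code.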

Additional observations from a re-analysis of the deposited data

Results flagged for a closer look

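Of 80 groups of 4 arrays examined for an array that lies apart, 1 was past Dixon's 95% critical value, where chance gives about 4. This was Mxd3 on untreated replicate 3, at a log2 level of -1.37, while its remaining untreated arrays lay between -0.38 and -0.20.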

How the results depend on the processing

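The counts of members called lower and higher depended on the scaling and the threshold. Lower calls numbered 3 with quantile normalization, with centring on the members' median, with normexp background and quantile normalization, with the authors' table, at 2-fold and with treat against 1.5-fold, and 30 with no fold limit, against 9. Higher calls numbered 1 with quantile normalization, with normexp and quantile normalization and with the authors' table, and 2 with centring on the members' median, against 0. The median change of the members was -0.0038, -0.012 and -0.023 with quantile normalization, with normexp and quantile normalization and with the authors' table, and has no value when centred on itself. Without 1 array, lower calls ranged from 6 to 17, with 17 without untreated replicate 3, and the median from -0.49 to -0.34. With the replicate number as a block lower calls stayed at 9 and the median at -0.40, and among named genes the block ended, in limma, only the calls of Rps27a (given above), Rps27 (-0.46, limma, adjusted p = 0.115) and Rps27l (-0.50, limma, adjusted p = 0.0653). For Rps21, leaving out the array of RA replicate 3, chosen after seeing the data, gave 0.22 (limma, adjusted p = 0.698), and without 1 array in turn it ranged from -0.55 to 0.22. Rps27 also lost its call with the slide as a block (limma, adjusted p = 0.0626) and without most arrays.

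Genes listed as ribosomal proteins outside the name rule and called lower numbered 0 with centring on the members' median, at 2-fold and with treat, 3 with no fold limit, and 1 to 2 without 1 array. Mitochondrial ribosomal proteins called lower numbered 18 with centring on the members' median, 17 at 2-fold and 16 with treat, and those higher 2, 0 and 0. Assembly genes called lower numbered 21 with that centring and 18 with treat. Translation factors called lower numbered 9 with quantile normalization, 4 with centring on the members' median, 10 with normexp and quantile normalization, 10 with the authors' table, 5 at 2-fold and 4 with treat, and those higher 13 with that centring and 7 with no fold limit. Myc and mTORC1 regulators called higher numbered 7 with that centring, 2 at 2-fold and 1 with treat. The change of the Rpl22l1 to Rpl22 ratio was 0.67 (exact permutation test, adjusted p = 0.114) with the mean over all probes of a gene, and 0.98 to 1.47 without 1 array, with adjusted p = 0.0762 without any 1 of the RA arrays. With the numbers as pairs the ratios kept their changes of -3.33, -2.56, -1.97, 1.22, -0.72 and -0.71, but exact sign flips of 4 pairs cannot pass (adjusted p = 0.167). Rpl19 reversed to 0.31, 0.30, 0.30 and 0.31 with quantile normalization, centring on the members' median, normexp and quantile normalization and the authors' table, and Rpl11 to 0.15 with both of the last. For Rpl22l1, centring on the members' median without 1 array was added after seeing the data. The cause was not tested. A gene past the threshold in neither setting was given no direction, and by that reckoning 340 of the other values for named genes were called in both settings, 302 in neither, 25 gained the call and 41 lost it.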
